A study of Homo sapiens with 12 samples.

Results

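The chromatin remodelling and modifying genes of the nCounter PanCancer Pathway panel were examined in 2 prostate cancer cell lines treated with MS13. The 33 genes were taken by name and function, with earlier results of these data known, from the 770 genes of the panel: SWI/SNF subunits, the pair ATRX and DAXX, histone methyltransferases with menin, histone demethylases, acetyltransferases, corepressors and Polycomb-linked genes, and genes of DNA methylation with the isocitrate dehydrogenases. Histone deacetylases were left out of the list. All 33 were present, and all were among the 684 genes tested.

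DU 145 and PC-3 are androgen-independent human prostate carcinoma lines, and MS13 is a diarylpentanoid, a synthetic analogue of curcumin. Each line was measured in 3 control samples and in 3 samples treated with 16 µM MS13 for 24 h, so that there were 4 groups and 12 samples, and the study's methods give DMSO alone for the controls. No genotype was altered in either line, and each line is a single cell population grown in flasks, so the groups stand for these cultures and not for tumours. Replicates are given as biological ones in the study's design text, which also names technical repeats, and the p-values measure only the spread between these samples. Replicates 2 and 3 of the PC-3 controls did not differ detectably from each other beyond sampling noise and were counted as 1 sample, which leaves n = 2 in that group and 11 samples in all.

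Total counts over the panel genes ran from 437471 to 604629 per sample. Values below are normalised counts, that is, counts divided by a factor set from the geometric mean of 40 housekeeping genes. That factor ran from 0.917 to 1.042 in the DU 145 controls and from 1.087 to 1.352 with MS13, and from 0.897 to 0.978 in the PC-3 controls and from 0.762 to 0.853 with MS13, so it moved with treatment and in opposite directions in the 2 lines. Its part in the results was examined with other scalings. Of the 33 genes, 32 lay above the background limit (the mean of the negative control probes plus 2 SD) in all 4 groups and CREBBP lay under it in all 4. The 6 epithelial genes checked were above the limit in every group. Of 10 leukocyte genes on the panel 1 was above the limit in the DU 145 line and 2 in the PC-3 line, and of 8 stromal and endothelial genes 0. In RNA from whole cultures, fewer cells of a kind and less RNA per cell cannot be told apart.

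Chromatin genes act in groups. SWI/SNF complexes use ATP to slide or evict nucleosomes, methyltransferases and demethylases write and erase methyl marks on histone tails, and acetyltransferases such as EP300 loosen nucleosomes at enhancers and promoters, while corepressors such as NCOR1 and SIN3A bring in histone deacetylases. DNMT1 copies DNA methylation onto new strands during replication, TET2 oxidises it, and the isocitrate dehydrogenases make the 2-oxoglutarate that TET enzymes and many histone demethylases need. Many of these genes are recurrently mutated in cancer, prostate cancer included.

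Promoter sequence was read for the genes from the RefSeq table of build GRCh38.p14, in which 27 of the 33 matched (WHSC1 and WHSC1L1 are now named NSD2 and NSD3). The 250 bases before a start of transcription are shown for the gene with the largest rise in both lines (KDM5C) and the gene with the largest fall in DU 145 cells (IDH2). Also shown are the only ones of the 27 with an E2F motif (WHSC1, which fell in both lines, and SIN3A, which moved in opposite directions). SIN3A had 2 windows, and the one with the E2F motif is shown. Capitals mark motif matches on either strand.
KDM5C, chrX:53225208-53225457, minus strand: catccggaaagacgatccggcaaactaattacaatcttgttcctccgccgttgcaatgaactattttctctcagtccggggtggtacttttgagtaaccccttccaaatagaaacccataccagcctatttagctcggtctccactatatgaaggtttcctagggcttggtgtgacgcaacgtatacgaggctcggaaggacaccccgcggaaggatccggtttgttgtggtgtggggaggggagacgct
IDH2, chr15:90100622-90100871, minus strand: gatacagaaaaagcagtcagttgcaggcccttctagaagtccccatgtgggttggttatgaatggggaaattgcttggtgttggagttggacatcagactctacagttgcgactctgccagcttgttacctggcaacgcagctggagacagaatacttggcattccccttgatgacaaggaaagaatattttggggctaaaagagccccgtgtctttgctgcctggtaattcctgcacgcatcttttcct
WHSC1, chr4:1871143-1871392, plus strand: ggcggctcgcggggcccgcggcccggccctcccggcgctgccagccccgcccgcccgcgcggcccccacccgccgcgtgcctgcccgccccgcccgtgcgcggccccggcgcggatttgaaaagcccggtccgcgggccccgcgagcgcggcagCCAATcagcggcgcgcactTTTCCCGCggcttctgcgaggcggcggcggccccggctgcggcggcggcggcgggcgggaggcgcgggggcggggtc
SIN3A, chr15:75451691-75451940, minus strand: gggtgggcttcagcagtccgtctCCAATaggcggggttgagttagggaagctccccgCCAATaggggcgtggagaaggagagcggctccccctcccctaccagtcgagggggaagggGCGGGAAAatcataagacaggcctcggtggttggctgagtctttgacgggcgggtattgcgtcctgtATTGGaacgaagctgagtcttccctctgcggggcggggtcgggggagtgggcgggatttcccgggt

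The 250 bases of every window were searched on both strands for 4 motifs. The E2F motif (TTTCCCGC, TTTGGCGC, TTTCGCGC or TTTGCCGC), bound by E2F factors at many S phase genes, was in 2.79% of all 35116 RefSeq promoter windows and in those of WHSC1 and SIN3A. CCAAT, the NF-Y motif, was in 32.0% of all windows and in 14 of the 49 windows of members. These belonged to 11 members, WHSC1 and SIN3A among them, and some members have several windows. The heat shock element GAANNTTC was in 5.78% of all windows and the C/EBP-ATF motif TGATGNAAT in 0.888%, and neither was in a member's window. KDM5C and IDH2 held none of the 4 motifs. A match is a description of the letters and no more.

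With MS13, the largest called rises in DU 145 cells were in KDM5C, TET2, KDM6A and KMT2C and the largest falls in IDH2, ARID1B, MEN1 and PBRM1. In PC-3 cells the largest rises were in KDM5C, DAXX, TET2 and EP300 and the largest falls in DNMT1, PBRM1, SUV39H2 and IDH2. In DU 145 cells 8 of 33 members rose and 21 fell (edgeR quasi-likelihood test, Benjamini-Hochberg adjusted p at most 0.05), where 19.0% of all genes tested rose and 47.1% fell. In PC-3 cells 11 rose and 17 fell, where 21.9% of all genes tested rose and 36.8% fell. The median log2 fold change of the members was -0.30 in DU 145 cells against -0.34 over all genes tested, and -0.22 in PC-3 cells against -0.09. No member rose by 2-fold or more in either line with this scaling, where 8.77% of all genes did in DU 145 and 6.58% in PC-3, but KDM5C and TET2 did in DU 145 cells with each of the 4 other scalings. By 2-fold or more 7 members fell in DU 145 cells and 5 in PC-3 cells, where 20.8% and 13.7% of all genes did, and with TMM 2 did in each line.

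The split between rises and falls depended on the scaling. With TMM, which scales on the bulk of the panel genes, the DU 145 split was 15 up and 12 down with a median of 0.13, and the PC-3 split 14 up and 13 down with a median of -0.03. TMM moved the median of all genes tested from -0.34 to 0.08 in DU 145 cells and from -0.09 to 0.10 in PC-3 cells, where the DU 145 calls over the 684 genes were 226 up and 203 down and the PC-3 calls 213 up and 214 down. Scaled on the positive control probes, the splits were 12 up and 13 down for DU 145 and 11 up and 18 down for PC-3.

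**Figure D1:**
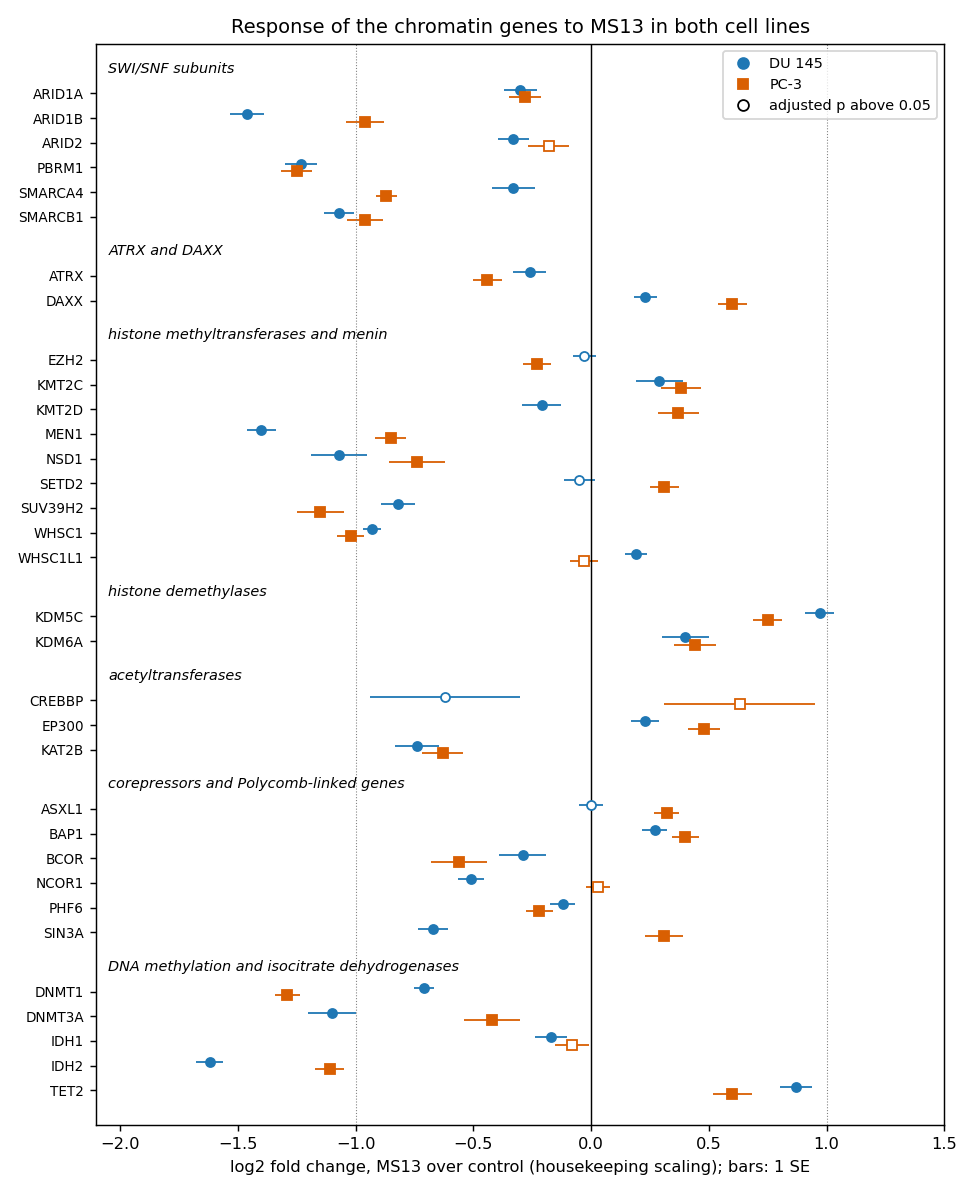
Each point is the log2 fold change of a member, MS13 over control, in DU 145 (circles) or PC-3 cells (squares), with bars of 1 SE and open points for an adjusted p above 0.05. KDM5C, TET2, KDM6A, EP300, DAXX, BAP1 and KMT2C lie right of 0 in both lines, IDH2 and PBRM1 lie left of -1 in both, and SIN3A lies on opposite sides.

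The members that rose in both lines were 7: BAP1, DAXX, EP300, KDM5C, KDM6A, KMT2C and TET2. All 7 rose in both lines under each of the 5 scalings run (housekeeping genes, the 10 most stable housekeeping genes, TMM, positive control probes, and DESeq2 median of ratios). The last of the 5 also changed the test from edgeR to DESeq2. With the housekeeping factors kept, DESeq2 lost 4 edgeR calls of members in DU 145 cells, 0 in PC-3 cells and 7 in the interaction. For every member the housekeeping value was the lowest of the 5 in DU 145 cells, so the other scalings could only enlarge a rise there. In both lines 16 members fell, and 10 of them did so under all 5 scalings: ARID1B, DNMT1, IDH2, KAT2B, MEN1, NSD1, PBRM1, SMARCB1, SUV39H2 and WHSC1. The other members that fell in both lines with the housekeeping scaling were ARID1A, ATRX, BCOR, DNMT3A, PHF6 and SMARCA4. With that scaling another 2 members, SIN3A and KMT2D, moved in opposite directions, 7 were called in 1 line only, and CREBBP was called in neither. Among the 7, ASXL1 was called up in both lines with 4 of the 5 scalings. Calls in both lines were not counted over all genes tested. Taken singly, 19.0% of those genes rose and 47.1% fell in DU 145 cells, and 21.9% and 36.8% in PC-3 cells.

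SWI/SNF subunits fell in both lines with the housekeeping scaling: 6 of 6 passed the test in DU 145 cells (median log2 fold change -0.70) and 5 of 6 in PC-3 cells (median -0.91), but with TMM 3 of 6 fell in DU 145 cells and 4 of 6 in PC-3 cells. Over all genes tested 47.1% and 36.8% fell, and with TMM 203 and 214 of 684. PBRM1, the polybromo subunit that defines the PBAF form of the complex, was at 540.6, 517.3 and 527.7 normalised counts in DU 145 controls and at 213.2, 253.9 and 214.5 with MS13. In PC-3 cells it was at 789.5 and 854.1 in controls and at 352.7, 363.3 and 326.9 with MS13. The groups did not overlap in either line, and the fall was 2.34-fold in DU 145 (log2 fold change -1.23, SE 0.068) and 2.38-fold in PC-3 cells (-1.25, SE 0.066); the difference between the lines was -0.02 (SE 0.098, edgeR adjusted p = 0.85) with the housekeeping scaling, and it was called with 2 of the 5 scalings, TMM and the positive control probes (-0.37). The fall of PBRM1 kept its call under all 5 scalings in both lines.

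ARID1B, a DNA-binding subunit of the BAF form, was at 452.3, 463.6 and 444.9 in DU 145 controls and at 170.9, 149.9 and 171.6 with MS13. In PC-3 cells ARID1B was at 415.9 and 386.2 in controls and at 199.8, 196.9 and 217.9 with MS13. All treated samples lay below all controls of their line, by a log2 of -1.46 (SE 0.073) for DU 145 and of -0.96 (SE 0.082) for PC-3. SMARCB1, a core subunit lost in rhabdoid tumours, fell 2.1-fold in DU 145 cells, from 527.4 ± 3.241 to 252.4 ± 19.73 (SD, n = 3 each), and 1.95-fold in PC-3 cells, from 464.4 ± 18.11 (n = 2) to 239.8 ± 11.98 (n = 3). ARID1A, the BAF counterpart of ARID1B, changed less, by a log2 of -0.30 (SE 0.072) in DU 145 against -0.28 (SE 0.069) in PC-3 cells, and its DU 145 value turned to 0.13 with TMM.

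SMARCA4, the ATPase BRG1 that drives the complex, set the lines apart before treatment. It was at 190.7, 179.5 and 201.5 normalised counts in DU 145 controls and at 2439 and 2379 in PC-3 controls, 12.6-fold higher in PC-3 cells (log2 3.66, SE 0.06, edgeR adjusted p = 7.9e-64). With MS13 it was at 142.9, 164.6 and 148.7 in DU 145 and at 1268, 1313 and 1360 in PC-3 cells. No control overlapped its treated group, and PC-3 cells with MS13 were still above every DU 145 sample. The fall was 1.26-fold in DU 145 cells (log2 -0.33, SE 0.09), where TMM gave 0.10, and 1.83-fold in PC-3 cells (-0.87, SE 0.045). This difference passed the interaction test under all 5 scalings (log2 -0.54, SE 0.1, edgeR adjusted p = 4.6e-06). The other scalings took it further down, to -0.89 at the lowest. ARID2, the PBAF subunit, fell in DU 145 cells (log2 -0.33, SE 0.066), a direction that TMM turned to 0.10, and was at -0.18 (SE 0.088, adjusted p = 0.073) in PC-3 cells.

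ATRX and DAXX together place the histone variant H3.3 at telomeres and repeats, and their transcripts moved apart. DAXX, the histone chaperone, was at 771.7, 819.6 and 758.1 in DU 145 controls and at 940.5, 944.6 and 870.0 with MS13. In PC-3 cells DAXX was at 472.8 and 502.0 in controls and at 742.8, 712.5 and 785.1 with MS13. Treated and control samples did not overlap in either line, and the rise was 1.17-fold in DU 145 and 1.52-fold in PC-3, with the larger rise in PC-3 cells by the interaction test (log2 0.38, SE 0.08, edgeR adjusted p = 4.3e-05), which the positive control probes took to 0.03. ATRX, the ATPase, fell 1.36-fold in PC-3 cells (log2 -0.44, SE 0.06) under all 5 scalings. In DU 145 cells it fell 1.2-fold (-0.26, SE 0.07), and TMM gave 0.17 there.

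**Figure D2:**
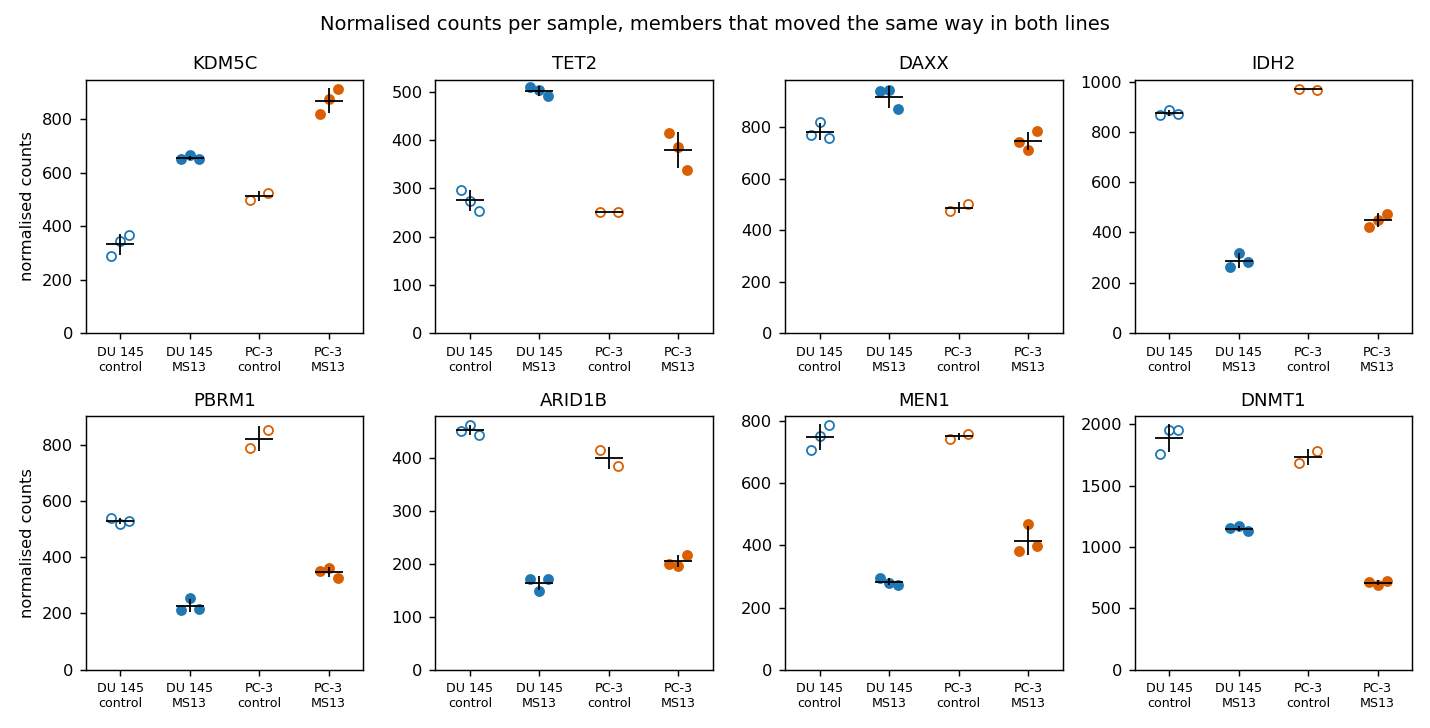
Normalised counts of 8 members in every sample of the 4 groups (open circles controls, filled circles MS13), with the horizontal line at the mean and the bar spanning 1 SD, and every axis starting at 0. KDM5C, TET2 and DAXX are higher with MS13 in both lines, and IDH2, PBRM1, ARID1B, MEN1 and DNMT1 lower, with no overlap between a line's treated and control samples.

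Of the 9 histone methyltransferases and menin, the DU 145 call was up for 2 and down for 5, the PC-3 call up for 3 and down for 5. Their medians of -0.21 and -0.23 were moved to 0.22 and -0.04 by TMM. Among all genes tested 19.0% rose and 47.1% fell in DU 145 cells, and 21.9% and 36.8% in PC-3 cells. MEN1 encodes menin, the scaffold that holds the KMT2A methyltransferase to its targets. It was at 706.3, 752.5 and 787.0 in DU 145 controls and at 295.6, 280.5 and 273.0 with MS13, a fall of 2.65-fold (log2 -1.40, SE 0.062). In PC-3 cells it was at 743.8 and 759.5 in controls and at 382.8, 467.6 and 396.5 with MS13, a fall of 1.81-fold (-0.85, SE 0.066). The controls of the 2 lines overlapped, and in both lines every treated sample was below every control. The difference of 0.55 between the lines (SE 0.092, edgeR adjusted p = 4.5e-07) was 0.20 with the positive control probes.

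SUV39H2 lays down the repressive trimethyl mark of heterochromatin on histone H3. It was at 358.6, 402.1 and 384.0 in DU 145 controls and at 225.3, 223.5 and 203.5 with MS13, and in PC-3 cells at 252.0 and 267.8 in controls and at 114.4, 128.9 and 110.3 with MS13. No treated sample reached a control of its line, and the fall was 1.76-fold in DU 145 and 2.22-fold in PC-3 cells, under all 5 scalings. WHSC1 (NSD2), the dimethyltransferase translocated in multiple myeloma, was at 2424, 2452 and 2289 in DU 145 controls and at 1242, 1253 and 1270 with MS13. In PC-3 cells WHSC1 was at 1065 and 1044 in controls and at 533.3, 505.1 and 516.0 with MS13. It was thus lower in PC-3 controls (2.27-fold) than in DU 145 controls, and it fell by a log2 of 0.93 (SE 0.04) and 1.02 (SE 0.057) with MS13; the difference between the lines was -0.09 (SE 0.071, edgeR adjusted p = 0.28) with the housekeeping scaling, but it was called below 0 with the 4 other scalings (-0.22 to -0.44).

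NSD1, a relative of NSD2, fell in both lines (log2 -1.07, SE 0.12, and -0.74, SE 0.12). WHSC1L1 (NSD3), the other relative, rose in DU 145 cells by 0.19 (SE 0.048), from 775.7 ± 10.29 to 885.8 ± 14.56 normalised counts (SD, n = 3 each), and was at -0.03 (SE 0.061) in PC-3 cells. Its call in DU 145 cells held under all 5 scalings, of which the housekeeping scaling gave the lowest value. EZH2, the catalytic subunit of Polycomb repressive complex PRC2, was at -0.03 (SE 0.049) in DU 145 cells and fell by a log2 of 0.23 (SE 0.06) in PC-3 cells, and TMM gave 0.40 and -0.04. It was called up in DU 145 cells with 4 of the 5 scalings, and its fall in PC-3 cells was called with 3 of the 5.

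KMT2C and KMT2D write the monomethyl mark of enhancers, and both are very large genes. KMT2C, parts of which have near-identical copies elsewhere in the genome that a probe could also count, was at 136.2, 114.2 and 123.7 in DU 145 controls and at 145.9, 165.6 and 148.0 with MS13. In PC-3 cells it was at 228.6 and 242.5 in controls and at 298.6, 324.6 and 305.9 with MS13. Treated samples were above controls in both lines, and the rise was 1.23-fold (log2 0.29, SE 0.1) and 1.31-fold (0.38, SE 0.085); without DU 145 control replicate 2 the value in DU 145 cells was 0.23 with an edgeR adjusted p of 0.066. KMT2D rose in PC-3 cells by 0.37 (SE 0.086) under all 5 scalings. In DU 145 cells KMT2D was at -0.21 (SE 0.084, edgeR adjusted p = 0.024), with overlapping groups and a value of 0.22 with TMM, and this call was lost without DU 145 MS13 replicate 1 or 3 or control replicate 2 or 3 (log2 -0.20, -0.16, -0.21 and -0.15). SETD2, which adds the methyl mark of transcribed gene bodies, rose in PC-3 cells by 0.31 (SE 0.061). It was at -0.05 (SE 0.067) in DU 145 cells, where it was called up with 3 of the 5 scalings (0.37 with TMM).

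Both histone demethylases rose in both lines, under all 5 scalings. With the housekeeping scaling 19.0% of all genes tested rose in DU 145 cells and 21.9% in PC-3 cells. That scaling gave the lowest DU 145 value for both demethylases. KDM5C, an X-linked enzyme that removes methyl groups from the activating mark at promoters, was at 287.8, 343.6 and 365.1 in DU 145 controls and at 651.0, 665.0 and 649.6 with MS13. In PC-3 cells KDM5C was at 498.5 and 525.8 in controls and at 819.8, 876.6 and 912.5 with MS13. The treated samples lay well above the controls in both lines, and the rise was 1.96-fold in DU 145 (log2 0.97, SE 0.063) and 1.69-fold in PC-3 cells (0.75, SE 0.062). TMM gave 1.40 and 0.94.

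KDM6A (UTX), which removes the Polycomb mark, was at 113.4, 121.9 and 147.6 in DU 145 controls and at 158.0, 173.8 and 174.6 with MS13, and at 258.7 and 221.3 in PC-3 controls and 311.8, 346.9 and 292.8 with MS13. The groups did not overlap in either line, with rises of 1.32-fold (log2 0.40, SE 0.1) and 1.36-fold (0.44, SE 0.088). KDM6A was also higher in PC-3 than in DU 145 controls, by 1.83-fold (log2 0.87, SE 0.1).

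Of the 3 acetyltransferases 1 rose and 1 fell in each line. Among all genes tested 19.0% rose and 47.1% fell in DU 145 cells, and 21.9% and 36.8% in PC-3 cells. EP300, the enhancer coactivator p300, was at 401.1, 405.0 and 423.9 in DU 145 controls and at 471.0, 504.0 and 468.3 with MS13, and in PC-3 cells at 374.7 and 354.7 in controls and at 512.8, 498.0 and 504.2 with MS13. Treated samples were above controls in both lines, by 1.17-fold and 1.4-fold. KAT2B (PCAF), which acetylates histone H3 and other proteins, fell from 198.9 ± 1.468 to 118.4 ± 11.96 in DU 145 cells (SD, n = 3 each; log2 -0.74, SE 0.094) and from 297.5 ± 12.21 (n = 2) to 192.9 ± 3.424 (n = 3) in PC-3 cells (-0.63, SE 0.088). CREBBP, the paralog of EP300, was at 8.316 to 39.84 normalised counts over all samples and under the background limit in each group, so no fold is given for it.

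Of the corepressors and Polycomb-linked genes 1 of 6 rose with MS13 in DU 145 cells while 4 fell. In PC-3 cells 3 of them rose and 2 fell. Over the 684 genes tested, rises made up 19.0% for DU 145 and 21.9% for PC-3, and falls 47.1% and 36.8%. TMM turned the split of the 6 into 3 rises against 1 fall for DU 145, and 4 against 1 for PC-3. The 684 genes then gave 226 rises against 203 falls for DU 145, and 213 against 214 for PC-3. SIN3A is the scaffold of a histone deacetylase complex. It was at 607.1, 594.1 and 530.7 in DU 145 controls and at 346.3, 390.9 and 351.4 with MS13, and in PC-3 cells at 262.1 and 309.7 in controls and at 356.3, 363.3 and 371.6 with MS13. With the housekeeping scaling the lines were far apart in controls and within the same range with MS13. Other scalings took the SIN3A difference between controls from -0.98 to as low as -1.11, and its interaction from 0.99 to as low as 0.64. SIN3A fell 1.6-fold in DU 145 cells (log2 -0.67, SE 0.063) and rose 1.24-fold in PC-3 cells (0.31, SE 0.081), and both calls and the interaction (0.99, SE 0.1, edgeR adjusted p = 1.3e-13) held under all 5 scalings.

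NCOR1, the nuclear receptor corepressor, was at 733.5, 796.6 and 747.1 in DU 145 controls and at 566.3, 533.5 and 503.1 with MS13, a fall of 1.42-fold (log2 -0.51, SE 0.054) that was -0.08 with TMM. In PC-3 cells NCOR1 was at 1126 and 1178 in controls and at 1200, 1221 and 1116 with MS13, so the groups overlapped there. BAP1, the deubiquitinase that acts on histone H2A, rose by 1.21-fold in DU 145 and 1.32-fold in PC-3. ASXL1, its partner, rose 1.25-fold in PC-3 cells (log2 0.32, SE 0.054), a call that held under all 5 scalings. In DU 145 cells ASXL1 was at 0.00 (SE 0.051) with the housekeeping scaling, but it was called up with 4 of the 5 scalings (0.43 with TMM). The ASXL1 interaction of 0.31 was called with 1 of the 5 scalings. BCOR, a corepressor of a Polycomb complex, fell by 0.56 (SE 0.12) in PC-3 cells and by 0.29 (SE 0.1) in DU 145 cells, where its call was lost without control replicate 1 (log2 -0.23) or MS13 replicate 1 (-0.24) and TMM gave 0.14. PHF6, a nucleosome-binding protein, was at -0.22 (SE 0.057) in PC-3 cells and at -0.12 (SE 0.053) in DU 145 cells, a call lost without control replicate 1 or 2 or MS13 replicate 2 or 3 (log2 -0.09, -0.13, -0.11 and -0.11), and TMM gave 0.31 there. In DU 145 cells PHF6 was called down with 1 of the 5 scalings and up with 3, and its fall in PC-3 cells was called with 3.

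**Figure D3:**
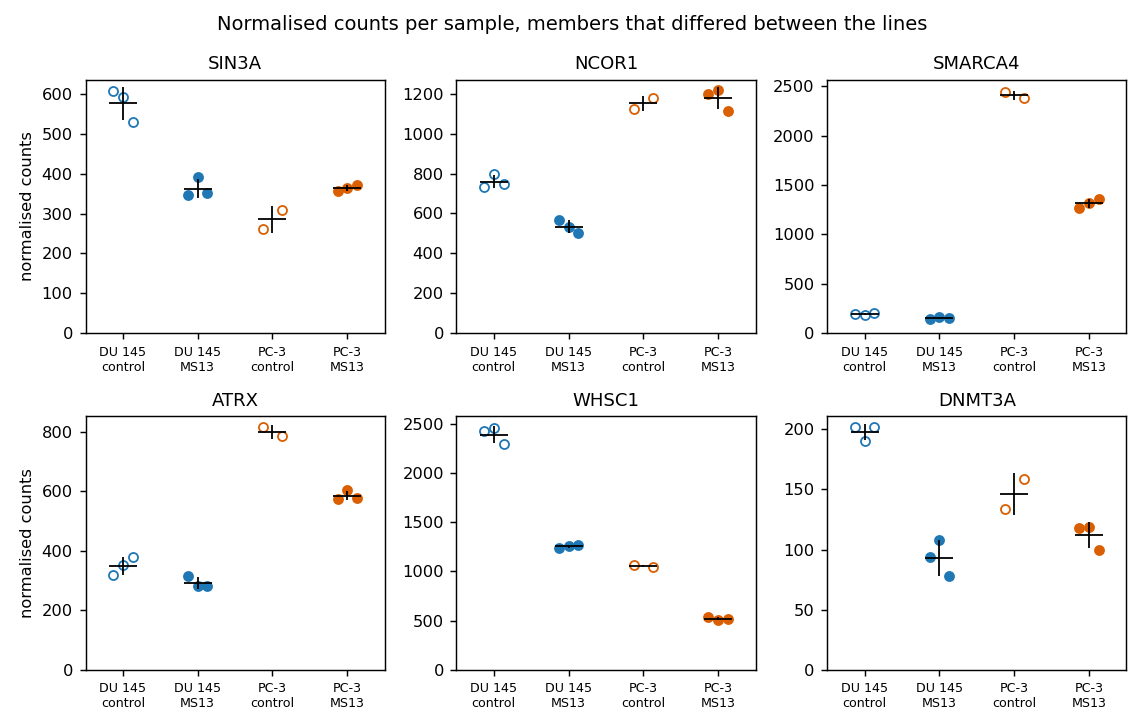
Normalised counts of 6 members in every sample of the 4 groups, with means, bars of 1 SD and symbols as in the plot of members that moved the same way. SIN3A is lower with MS13 in DU 145 cells and higher in PC-3, SMARCA4 is 12.6-fold higher in PC-3 controls, and WHSC1 is lower in PC-3 cells and lower with MS13 in both.

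Among the genes of DNA methylation and the isocitrate dehydrogenases TET2 alone rose, in both lines with the housekeeping scaling. The DU 145 calls were 1 of 5 up and 4 down (median log2 -0.71), the PC-3 calls 1 up and 3 down (median -0.42). The medians over all genes tested were -0.34 and -0.09, where 47.1% and 36.8% of genes fell while 19.0% and 21.9% rose. With TMM these 5 genes gave 2 rises and 3 falls for DU 145, and 1 rise and 2 falls for PC-3. Falls over the 684 genes then numbered 203 for DU 145 and 214 for PC-3. IDH2, the mitochondrial isocitrate dehydrogenase, was at 866.5, 887.8 and 872.8 in DU 145 controls and at 260.8, 319.2 and 281.9 with MS13, and in PC-3 cells at 971.3 and 967.4 in controls and at 422.5, 450.0 and 475.3 with MS13. No samples overlapped, and the fall was 3.07-fold in DU 145 (log2 -1.62, SE 0.059) and 2.16-fold in PC-3 cells (-1.11, SE 0.061), under all 5 scalings. IDH1, the cytosolic enzyme, was at -0.17 (SE 0.069) in DU 145 cells, with overlapping groups, and the call was lost without DU 145 control replicate 2 (log2 -0.07) or MS13 replicate 2 (-0.14) or 3 (-0.16), while TMM gave 0.26. In PC-3 cells IDH1 was at -0.08 (SE 0.073).

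DNMT1, the maintenance DNA methyltransferase, was at 1753, 1950 and 1949 in DU 145 controls and at 1151, 1170 and 1129 with MS13, and in PC-3 cells at 1686 and 1779 in controls and at 713.9, 691.4 and 724.7 with MS13. Controls of the 2 lines overlapped, and treated samples lay below them in both. The fall was 1.64-fold in DU 145 (log2 -0.71, SE 0.043) and 2.45-fold in PC-3 cells (-1.29, SE 0.052), larger in PC-3 cells by the interaction test under all 5 scalings (-0.58, SE 0.068, edgeR adjusted p = 1.8e-11). The other scalings took this interaction further down, to -0.92 at the lowest. DNMT3A, the de novo methyltransferase, fell more in DU 145 cells, with a fall of 2.14-fold in DU 145 (log2 -1.10, SE 0.1) from 201.6, 190.0 and 201.5 to 93.75, 107.6 and 77.68, and of 1.33-fold in PC-3 cells (-0.42, SE 0.12) from 133.8 and 158.7 to 118.0, 118.4 and 99.78. Samples did not overlap in either line, and the difference of 0.68 between the lines (SE 0.16, edgeR adjusted p = 0.00021) was called under 3 of the 5 scalings.

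TET2, which oxidises methylcytosine, was at 297.6, 274.5 and 252.4 in DU 145 controls and at 511.1, 504.0 and 491.2 with MS13. In PC-3 cells TET2 was at 250.9 and 251.3 in controls and at 414.1, 385.5 and 338.7 with MS13. All treated samples were above all controls, and the rise was 1.83-fold in DU 145 (log2 0.87, SE 0.068) and 1.52-fold in PC-3 cells (0.60, SE 0.081).

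Whether the response differed between the lines was tested as an interaction, PC-3 minus DU 145, and the 2 responses share no samples. Of the 33 members 12 were above 0, among them CREBBP under the background limit, and 7 below, where 32.0% of all genes tested were above and 18.0% below, and with TMM 6 were above and 12 below. With the positive control probes 1 was above and 14 below. All genes tested turned the same way, with 129 of 684 above and 190 below with TMM, and 94 above and 217 below with the positive control probes. SIN3A was above 0 and DNMT1, EZH2, KDM5C, SMARCA4, SUV39H2, TET2 and WHSC1L1 were below 0 under all 5 scalings. The housekeeping interaction was the highest of the 5 for every member, so the other scalings moved all of them down. The log2 interaction of SUV39H2 was -0.33 (SE 0.13, edgeR adjusted p = 0.025), that of TET2 -0.27 (SE 0.11, adjusted p = 0.028), that of KDM5C -0.22 (SE 0.089, adjusted p = 0.034), that of EZH2 -0.20 (SE 0.077, adjusted p = 0.027) and that of WHSC1L1 -0.22 (SE 0.078, adjusted p = 0.017). Each of these 5 lost its call when single libraries were left out, SUV39H2 without DU 145 control 1 (-0.29), DU 145 MS13 1 (-0.30), PC-3 control 2 (-0.24) or PC-3 MS13 1 (-0.31) or 3 (-0.29), and TET2 without DU 145 control 3 (-0.21), DU 145 MS13 1 (-0.26) or PC-3 MS13 3 (-0.20). KDM5C lost it without DU 145 control 1 (-0.13), DU 145 MS13 2 (-0.21), PC-3 control 3 (-0.20) or PC-3 MS13 1 (-0.18), EZH2 without DU 145 MS13 1 (-0.17) or 2 (-0.16), PC-3 control 2 (-0.15) or PC-3 MS13 2 (-0.18) or 3 (-0.19), and WHSC1L1 without PC-3 MS13 1 (-0.16). SIN3A, DNMT1 and SMARCA4 kept their interaction calls without each library in turn.

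**Figure D4:**
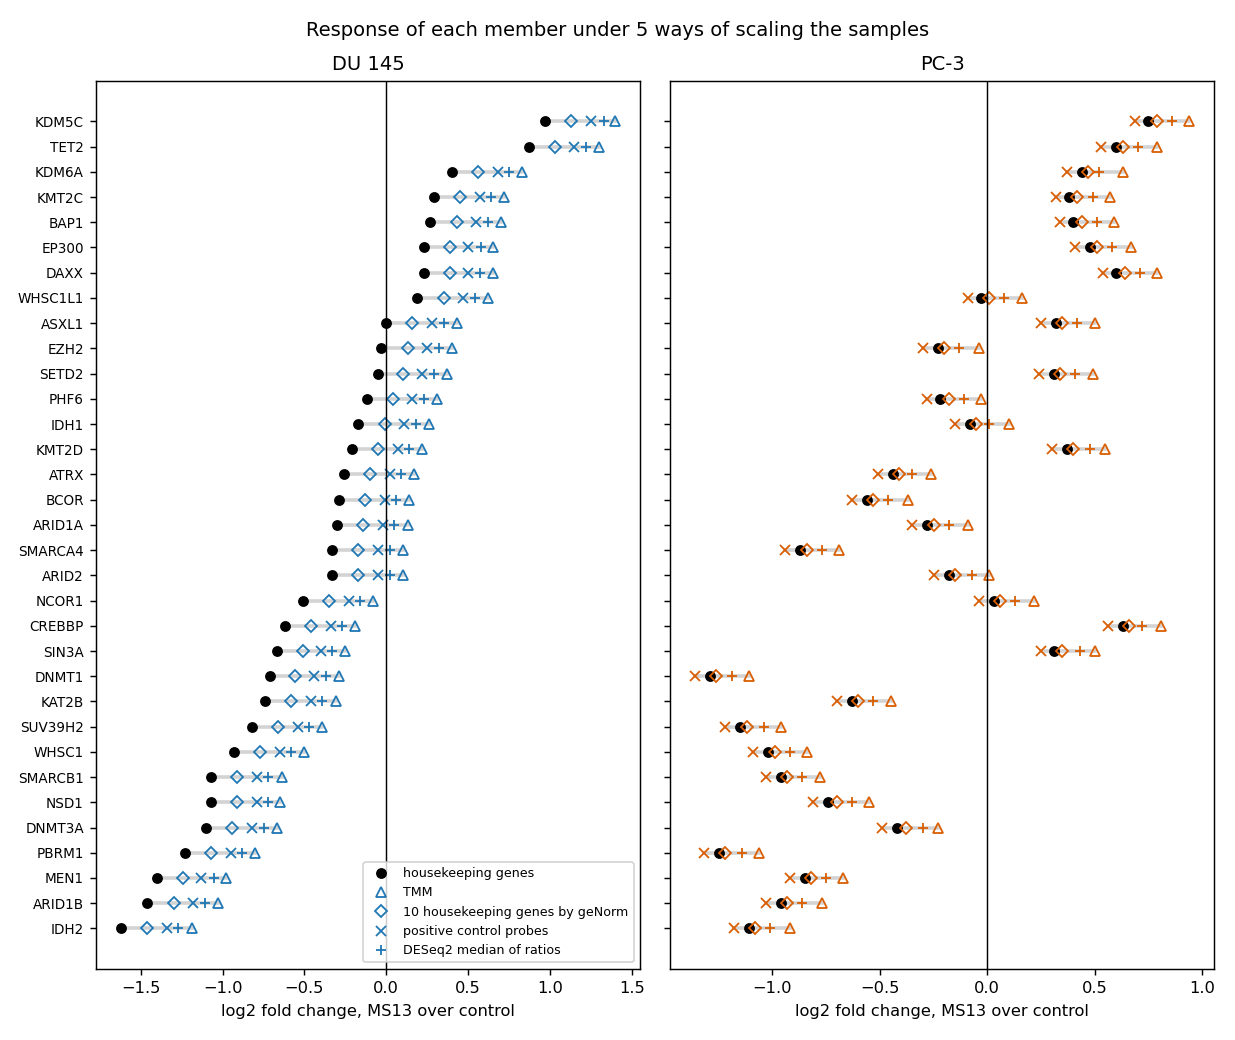
Log2 fold change of each member, MS13 over control, under 5 ways of scaling the samples, with DU 145 cells on the left and PC-3 cells on the right. In DU 145 cells every other scaling moves all members to the right of the housekeeping values, so that members near 0 such as EZH2 (-0.03 to 0.40) change side while KDM5C (0.97 to 1.40) and IDH2 (-1.62 to -1.19) do not.

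In the controls, the lines differed in 28 of the 33 members: 16 were higher in PC-3 cells, where 36.0% of all genes tested were, and 12 were lower, where 31.0% were. These control samples are also those of the MS13 comparisons. Next to SMARCA4, ATRX (318.3, 350.3 and 377.1 in DU 145, 816.3 and 783.3 in PC-3 controls) was 2.28-fold higher in PC-3 cells (log2 1.19, SE 0.063), and KMT2C was 1.91-fold higher (0.93, SE 0.098). The groups did not overlap for these 3. WHSC1 (log2 -1.18, SE 0.046), SIN3A (-0.98, SE 0.072) and ARID2 (-0.68, SE 0.076) were lowest in PC-3 relative to DU 145 controls. ARID2 was at 414.2, 393.5 and 470.8 in DU 145 and at 245.3 and 278.7 in PC-3 controls, again without overlap. Of the differences in controls, 11 of those higher and 12 of those lower in PC-3 cells held under all 5 scalings. DESeq2 with the housekeeping factors kept lost 5 of the calls in controls, so losses under the DESeq2 scaling need not come from the scaling.

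**Figure D5:**
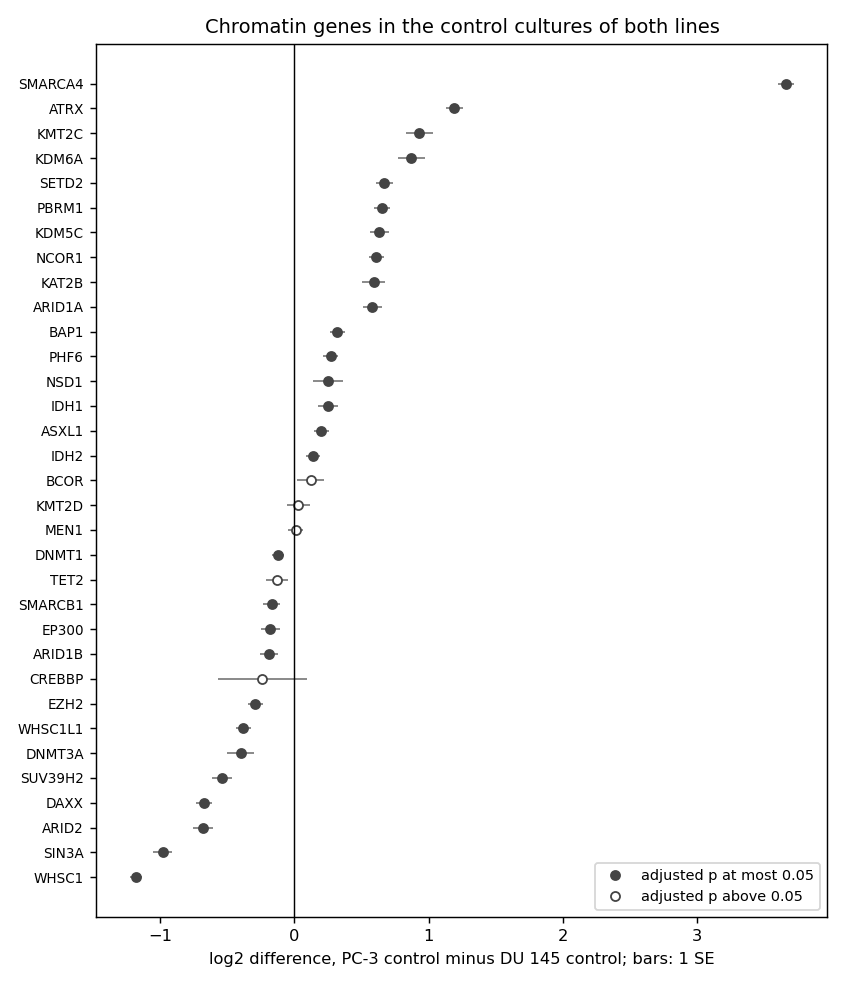
Log2 difference of each member between PC-3 and DU 145 controls (housekeeping scaling), with bars of 1 SE and open points for an adjusted p above 0.05. SMARCA4 stands at 3.66, far from the next, ATRX at 1.19, and WHSC1 is lowest at -1.18.

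Beyond the 33, a list of 28 other chromatin genes had 20 members tested (3 more are housekeeping genes of the panel). The DU 145 calls were 3 up and 12 down (median log2 -0.47) and the PC-3 calls 2 up and 12 down (median -0.34). TMM gave 7 up and 9 down, and 6 up and 9 down. Among all genes tested 19.0% rose and 47.1% fell in DU 145 cells, and 21.9% and 36.8% in PC-3 cells. DNMT1, EZH2, SUV39H2 and WHSC1 are known to be higher in dividing cells, so S phase genes were counted beside them. Of 15 S phase genes tested 3 rose and 12 fell in DU 145 (median -0.54), where 47.1% of all genes fell, and 2 rose and 13 fell in the PC-3 line (median -1.12), where 36.8% did. In the interaction 1 was above 0 and 13 below, where 18.0% of all genes were below. With TMM 8 fell in DU 145 and 13 in PC-3 cells. The part of proliferation in the values of the 4 genes was not tested.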

How the data were processed

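RNA of the DU 145 and PC-3 lines in 12 samples, 3 per labelled group, was hybridised to the nCounter PanCancer Pathway probes. The authors deposited unnormalised counts, 1 per probe and sample, with 6 positive and 8 negative control probes and no background subtraction. The authors' own normalisation in nSolver, to housekeeping genes chosen by geNorm, is not in these counts. Probes carry gene symbols only, and probe sequences were not used here.

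The software was edgeR 4.0.16, with limma 3.58.1, under R 4.3.3. All 40 housekeeping genes were present, set the scaling by their geometric mean and were not tested. Genes with a mean under 10 were left out, which leaves 684. The 4 groups were fitted together by edgeR's quasi-likelihood test (glmQLFit, glmQLFTest) for MS13 against control in each line, the interaction (PC-3 minus DU 145) and PC-3 against DU 145 controls, with Benjamini-Hochberg adjustment over all genes tested at 0.05. The script was tested on simulated data. The design had 12 samples, and PC-3 control replicates 2 and 3 were added because no difference beyond sampling noise was found between them (chi-square per degree of freedom 1.04, p = 0.2; 1.17 to 2.21 in the other pairs). Total counts of 437471 to 604629 per sample set the precision, and counting alone gives an error of 10% at 100 counts.

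The members and gene lists were chosen with earlier results of these data known. Genes given sample by sample were the 4 largest called rises and falls in each line among members above background whose treated samples did not overlap the controls, and the 3 highest and lowest called interactions and differences in controls, with further members added after their values were seen. Alternatives were TMM, 10 housekeeping genes picked by geNorm, the positive control probes, DESeq2 1.42.0 with both kinds of size factor, subtraction of the negative probes, other filters, each line fitted alone, each library left out and a replicate block. Same-numbered samples did not deviate together (correlations from -0.20 to 0.11 over 431 genes), so the numbers were not taken as pairs.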

Additional observations from a re-analysis of the deposited data

Results flagged for a closer look

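The interaction test separated the 2 lines' responses to MS13 for 19 of the 33 members, CREBBP among them, where 32.0% of all genes tested were above 0 and 18.0% below. The log2 differences of these members, PC-3 minus DU 145, are given here. Above 0 were SIN3A (0.99), DNMT3A (0.68), KMT2D (0.57), MEN1 (0.55), NCOR1 (0.54), IDH2 (0.51), ARID1B (0.50), DAXX (0.38), SETD2 (0.36), ASXL1 (0.31) and EP300 (0.25). The fitted value of CREBBP was 1.24, which gives no size of a difference because all 4 group means lay under the background limit, and its call was lost without DU 145 control replicate 3 (edgeR adjusted p = 0.065), DU 145 MS13 replicate 1 (0.077) or PC-3 MS13 replicate 2 (0.21). EP300 lost its call without PC-3 control replicate 3 (log2 0.22). Below 0 were DNMT1 (-0.58), SMARCA4 (-0.54), SUV39H2 (-0.33), TET2 (-0.27), KDM5C (-0.22), WHSC1L1 (-0.22) and EZH2 (-0.20). Of these, SUV39H2, TET2, KDM5C, WHSC1L1 and EZH2 also lost their calls when single libraries were left out. Of those above 0 only SIN3A, and all 7 below 0, were called in the same direction under all 5 scalings. For every member the housekeeping value was the highest of the 5, so the other scalings could only move values below 0 further down.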

How the results depend on the processing

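Scaling moved the DU 145 and the interaction results. With TMM 15 members rose and 12 fell in DU 145 cells, and 13 fell with the positive control probes and with DESeq2 median of ratios, against 8 and 21. Falls of 2-fold or more numbered 7 in DU 145 cells (2 with TMM, 4 with 10 housekeeping genes and 3 with both other scalings) and 5 in PC-3 cells (2 with TMM, 7 with the positive probes and 4 with both other scalings). The DU 145 median of -0.30 was 0.13 with TMM, -0.14 with 10 housekeeping genes, -0.02 with the positive probes and 0.05 with median of ratios, and the PC-3 median of -0.22 was -0.03, -0.18, -0.28 and -0.11, and -0.26 with the negative probes subtracted. Leaving out each library gave medians from -0.36 to -0.26 in DU 145 and from -0.24 to -0.17 in PC-3 cells. DESeq2 with housekeeping size factors called 12 interactions against 19. Of log2 values called under either setting, those that changed sign in DU 145 cells were, with TMM and then with median of ratios, ARID1A (0.13, 0.05), ARID2 (0.10, 0.02), ATRX (0.17, 0.09), BCOR (0.14, 0.06), EZH2 (0.40, 0.32), IDH1 (0.26, 0.18), KMT2D (0.22, 0.14), PHF6 (0.31, 0.23), SETD2 (0.37, 0.29) and SMARCA4 (0.10, 0.02). With the positive probes they were ATRX 0.02, EZH2 0.25, IDH1 0.11, KMT2D 0.07, PHF6 0.16 and SETD2 0.22, and with 10 housekeeping genes EZH2 0.13 and PHF6 0.04. ASXL1 did not change sign there, but it was called up in DU 145 cells with 4 of the 5 scalings and not with the housekeeping scaling. In PC-3 cells WHSC1L1 turned to 0.16 with TMM, and the interaction turned with the positive probes for ARID1A (-0.33), ASXL1 (-0.03), EP300 (-0.09) and IDH1 (-0.27). Values called under neither setting also crossed 0, such as the interactions of ARID2 and BAP1. The cause was not tested. In controls, single libraries ended the calls of ARID1B, DNMT1, EP300, NSD1 and SMARCB1, and no call of a member in PC-3 cells was lost that way. With a replicate block over the 12 samples the DU 145 counts were 8 up and 21 down, the PC-3 counts 11 up and 17 down, and no call changed. CREBBP could not be measured at a minimum mean of 50.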
